A study of Homo sapiens with 70 samples.

Results

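Counts of 37 genes of the contractile machinery and of serum response factor (SRF) and YAP signalling were followed through the groups of the series described here, out of 44503 genes in each count table. The genes were taken by name, with no limit on their values, and all 37 were found in the tables, CYR61 being the older symbol of CCN1. By role they are 3 muscle-type actins, 6 proteins that cross-link or bundle actin filaments and 10 proteins of the thin filament. They also include 7 myosin chains and kinases of the contractile pathway, 7 proteins of focal adhesions and LIM-domain scaffolds, 1 transcriptional coactivator and 3 target genes of YAP.

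Actin filaments pulled by non-muscle myosin II give a fibroblast its tension, and focal adhesions hand that tension to the matrix outside the cell. When monomeric actin is used up by filament assembly, the coactivators of the MRTF family are set free to join SRF, which switches on actin and actin-binding genes through a DNA element called the CArG box. Tension also keeps YAP and its relative WWTR1 (TAZ) in the nucleus, where they work through the TEAD factors, and a strongly contractile, alpha-actin-rich fibroblast is called a myofibroblast.

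The first experiment used IMR90 cells, normal human fibroblasts of fetal lung, that were transduced with a retroviral pLNCX2 vector for ER:HRAS(G12V), an oncogenic HRAS fused to an oestrogen receptor domain that 4OHT activates. It holds 4 groups of 8 libraries, which are growing cells with a control miR30 vector (Grow), growing cells with a miR30 hairpin against HMGA1 (Grow-shA1), cells made senescent by 6 days in 100 nM 4OHT (OIS, oncogene-induced senescence) and OIS cells with the HMGA1 hairpin (OIS-shA1). In the second experiment the same kind of cells carried empty vectors at day 0 (Grow-v-v) or after 6 days in 100 nM 4OHT (OIS-v-v), or, after the same 6 days, a hairpin against CEBPB (OIS-shCEBPB), with 5 libraries in each group, and 2 further groups of 5 were not compared here. The third compared H1299, a lung cancer cell line, with the control vector (7 libraries) or with the HMGA1 hairpin (H1299-shA1, 6 libraries). The cells were drug-selected populations, each target was knocked down with 1 hairpin, and the counts of HRAS in IMR90 cells do not separate the transgene from the cells' own gene. All comparisons took place within an experiment, and p-values measure only the spread between these libraries, which the labels call biological replicates. For the first experiment the labels speak of 6 biological replicates and the study's methods of 8 per condition, and all 8 libraries of a group were used.

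Levels are given as CPM, counts scaled by TMM-adjusted library size to the same total in each library, unless FPKM, which also divide by exon length, are named, and a member was called changed at an edgeR adjusted p under 0.05 over all genes tested. The libraries held between 1903607 and 24890797 counts, and all but replicate 4 of OIS held at least 13904974. HMGA1 and CEBPB went the way of their labels in every library. HMGA1 had log2 fold changes of -3.79, -3.62 and -2.31 in Grow-shA1, OIS-shA1 and H1299-shA1, and CEBPB had -3.06 in OIS-shCEBPB. HRAS stood at 633 to 2233 CPM in the libraries of IMR90 cells and at 33.6 to 43.3 CPM in those of H1299. The 6 fibroblast markers COL1A1, COL1A2, COL3A1, THY1, PDGFRB and DCN summed to 24670 to 43150 CPM in the growing libraries of the first experiment and to 3192 to 4623 CPM in the senescent ones, and to between 0.979 and 2.39 CPM in H1299 libraries, where the 5 epithelial markers EPCAM, CDH1, KRT8, KRT18 and KRT19 held 630.4 to 1138 CPM. The markers of striated muscle, endothelium and blood cells matched here summed to no more than 1.35, 2.12 and 1.43 CPM in any library.

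RefSeq promoter windows of GRCh38.p14, from 250 bases before to 50 bases after each annotated start, were matched for 32 of the 37 members, and TAGLN, MYL9, MYH11, MYOCD and CYR61 had none. The CArG box was searched on both strands as CC, then 6 bases that are each A or T, then GG, a pattern that reads the same on either strand. It was found in 10 of the 32 members (31.2%), in 2 of 20 matched genes of a pathway list described below (10%) and in 1.6% of 27305 genes with a window. Counted by window, since several members have more than 1 annotated start, 20.3% of the members' windows and 1.29% of all windows held it. The letters GGAATG, the element of the TEAD factors, were found on either strand in 16 of the 32 members (50%), against 16.7% of all genes, and in 28.8% of the members' windows, against 14% of all windows. The 10 members with a CArG box were ACTG2, ACTC1, ACTN1, FLNA, SVIL, CNN2, TPM4, SMTN, MYLK and FHL2. Printed here are the boxes of ACTG2 and ACTC1, 2 actins that fell steeply in senescence, and of SVIL and SMTN, which did not fall, followed by the TEAD-type letters of LMOD1, ANKRD1 and AMOTL2, with the motif in capitals (for AMOTL2 it reads GGAATG on the opposite strand) and each sequence written 5′ to 3′ on the strand of its gene. ANKRD1 held a further match of these letters, 220 bases before its start, which is not printed. A match of letters is a description and shows no binding. The members were listed as contractile, SRF and YAP target genes, so shares above those of all genes may come from that choice.
ACTG2, CArG box 110 bases before the start (chr2:73892888-73892917, plus strand): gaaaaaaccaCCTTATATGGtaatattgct
ACTG2, CArG box 73 bases before the start (chr2:73892925-73892954, plus strand): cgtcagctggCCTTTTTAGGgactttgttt
ACTC1, CArG box 109 bases before the start (chr15:34795639-34795668, minus strand): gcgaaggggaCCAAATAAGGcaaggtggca
SVIL, CArG box 33 bases before the start (chr10:29634985-29635014, minus strand): cgagttcaggCCATAAAAGGcccgtcccat
SMTN, CArG box 44 bases before the start (chr22:31084942-31084971, plus strand): cggggccgggCCATATAAGGaaaagctagg
LMOD1, TEAD-type letters 126 bases before the start (chr1:201946659-201946684, minus strand): aagattccctGGAATGtcctcaagtt
ANKRD1, TEAD-type letters 128 bases before the start (chr10:90921200-90921225, minus strand): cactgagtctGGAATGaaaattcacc
AMOTL2, TEAD-type letters 69 bases before the start (chr3:134374501-134374526, minus strand): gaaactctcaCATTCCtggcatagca

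The 37 genes summed to 2.57% to 2.84% of all counts in Grow and 1.2% to 1.51% in OIS libraries, ranges that did not overlap. In the second experiment their share was 2.92% to 3.13% in Grow-v-v and 1.75% to 1.89% in OIS-v-v libraries, and in H1299 it was 0.844% to 0.944%. On the FPKM scale FLNA, a filamin that cross-links actin into networks, was the most abundant member in Grow at 438 ± 40.2 FPKM (SD, n = 8), next to MYL6, the essential light chain of non-muscle myosin, at 433 ± 20.4 FPKM, and these levels lie within their spread of each other. MYH11, the myosin heavy chain of smooth muscle, was at the other end with 0.0306 ± 0.0170 FPKM, and no library of the series had more than 0.872 CPM of it. SYNPO2, a bundling protein of muscle Z-discs, and the cardiac actin ACTC1 were the next lowest, at 1.51 ± 0.187 FPKM and 4.64 ± 2.74 FPKM. Exons of MYL9 overlap those of a gene on the opposite strand over 57.7% of their length, and the overlaps of MYOCD (31.1%), ACTA2 (26.3%, with its antisense gene and FAS), MYL6 (20.8%), TPM1 (15.2%), LMOD1 (13.5%) and TAGLN (11.8%) are smaller. Reads there were not counted for either gene, since strand was not used in counting by the table headers of the first experiment and of H1299, and reads that near-identical actins share were lost as well, so these levels may lie under the true ones.

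The OIS and Grow libraries show what happened to the contractile genes when the oncogene had been active for 6 days. Nearly all of them fell. Of the 36 members tested 33 fell and 3 rose, where 74.8% of all 13304 genes tested were called, 38.8% higher and 35.9% lower. The median log2 fold change of the members was -1.21, beside 0.027 over all genes tested. In 33 members every OIS library lay below every Grow library and in 2 every OIS library lay above, whereas 43.7% of all genes were free of overlap (19% above and 24.7% below). MYH11 was too low to be tested in any comparison of IMR90 cells. Without the shallow replicate 4 of OIS, which stood apart on the first principal component of its experiment, 36 members were called, against 75.5% of all genes. The fibroblast markers moved in the same comparison, as given above, and their part in these values was not tested. In RNA from whole cultures, fewer contractile cells and less contractile RNA in each cell cannot be told apart.

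The muscle-type actins fell steeply, and so did TAGLN and LMOD1 among the proteins that sit on them. ACTA2, the alpha-actin of smooth muscle and myofibroblasts, ran from 370.5 to 454 CPM (median 436) in Grow and from 24.9 to 35.3 CPM (median 33.7) in OIS libraries (log2 fold change -3.66, standard error 0.066, edgeR adjusted p = 6.65e-27). ACTG2, the gamma-actin of smooth muscle, stood at 359 to 553 CPM (median 474) in Grow and at 22.4 to 32.7 CPM (median 30.7) in OIS (log2 fold change -3.93, standard error 0.077, edgeR adjusted p = 5.01e-26). For both genes all 8 OIS libraries lay far below all 8 Grow libraries. ACTC1 stood at 7.09 to 43.7 CPM (median 15.3) in Grow and at 0 to 0.803 CPM (median 0.351) in OIS (log2 fold change -5.74, standard error 0.42, edgeR adjusted p = 4.86e-13). TAGLN, the actin-binding transgelin that marks smooth muscle, held 859 to 1079 CPM (median 959.7) in Grow and 45.2 to 80.5 CPM (median 57.9) in OIS libraries (log2 fold change -3.96, standard error 0.084, edgeR adjusted p = 2.23e-25). LMOD1, a leiomodin that nucleates actin filaments in smooth muscle, held 61.4 to 75.7 CPM (median 67.1) in Grow and 0.606 to 2.50 CPM (median 1.60) in OIS (log2 fold change -5.40, standard error 0.12, edgeR adjusted p = 7.76e-25). All 10 of the thin filament were called, 9 lower and 1 higher, and the calponin CNN1, which restrains actomyosin, followed them with 192 to 234 CPM in Grow and 20.01 to 32.3 CPM in OIS libraries (log2 fold change -3.08). In the broadly expressed members of the same role the falls were smaller, at -1.75 for TPM1, -0.79 for TPM2 and -1.18 for TPM4, the tropomyosins that line the filament, -1.81 for caldesmon (CALD1), -1.52 for CNN2 and -1.10 for CNN3.

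**Figure D1:**
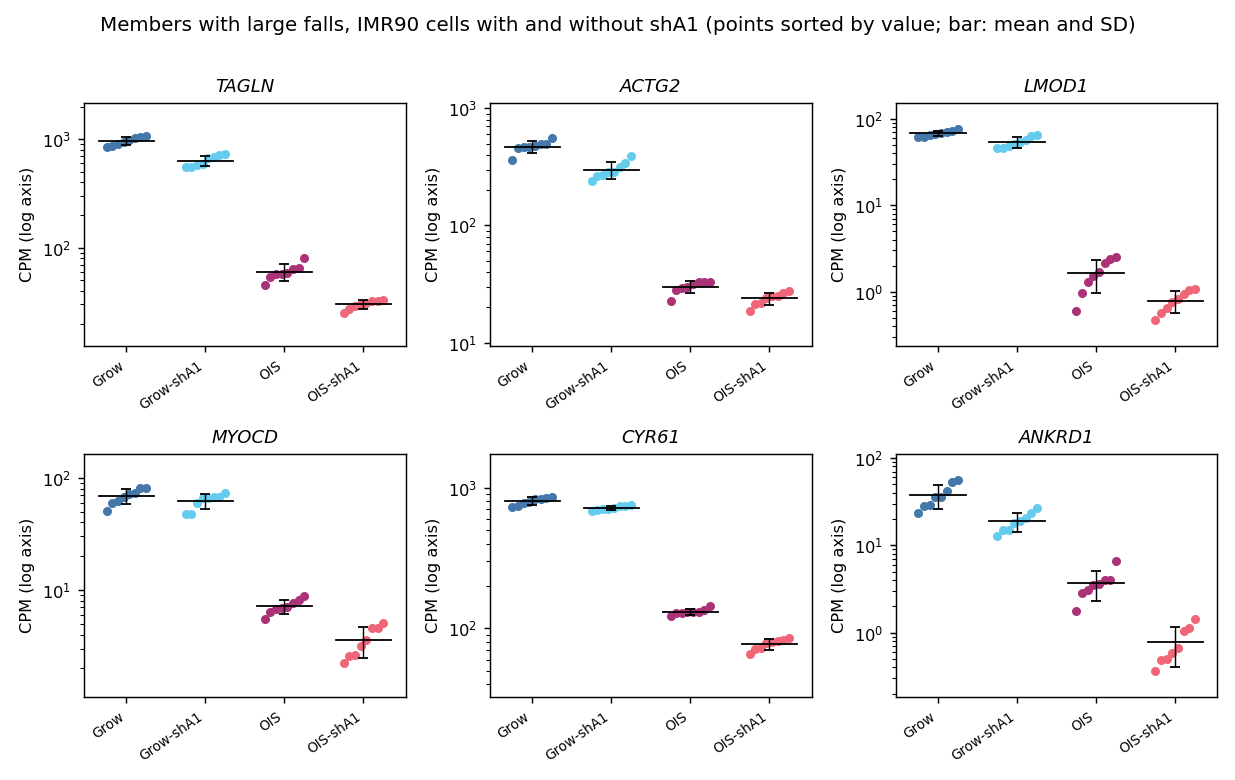
Levels in CPM (log axis) of TAGLN, ACTG2, LMOD1, MYOCD, CYR61 and ANKRD1 in the 4 groups of the first experiment (8 libraries each), with a point per library, the mean as a line and the SD as a bar. OIS libraries lie below all Grow libraries in each panel, and for TAGLN, MYOCD, CYR61 and ANKRD1 the OIS-shA1 libraries lie below all OIS libraries.

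MYOCD, the coactivator that drives SRF on smooth muscle genes, was present at 51.1 to 81.3 CPM (median 69.2) in Grow and at 5.49 to 8.85 CPM (median 6.96) in OIS libraries (log2 fold change -3.23, standard error 0.10, edgeR adjusted p = 8.77e-22). The YAP targets went with it. CYR61, a secreted matricellular protein, held 733 to 863 CPM (median 809) in Grow and 122 to 145 CPM (median 129.8) in OIS (log2 fold change -2.58, standard error 0.048, edgeR adjusted p = 1.31e-26). ANKRD1, an ankyrin-repeat protein induced by stretch, held 23.3 to 55.4 CPM (median 35.9) and 1.76 to 6.67 CPM (median 3.54) (log2 fold change -3.46, standard error 0.18, edgeR adjusted p = 2.87e-16). AMOTL2, an angiomotin that feeds back on YAP, held 178 to 199 CPM and 50.9 to 66.8 CPM (log2 fold change -1.68, standard error 0.051, edgeR adjusted p = 5.62e-22). No OIS library reached the lowest Grow library for any of these 4 genes. Replicate 4 of OIS, the shallow library, had the highest ANKRD1 level of its group, and without it the fold change was -3.50.

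All 6 myosin chains and kinases that were tested fell, from -0.38 for PRKG1, the cyclic GMP-dependent kinase that relaxes smooth muscle, to -2.26 for MYH10, the heavy chain of non-muscle myosin IIB. MYH10 ran from 203 to 242 CPM (median 225) in Grow and from 41.4 to 51.5 CPM (median 45.6) in OIS libraries. The abundant heavy chain MYH9, of myosin IIA, held 2959 to 3705 CPM (median 3208) in Grow and 1189 to 1622 CPM (median 1446) in OIS (log2 fold change -1.13, standard error 0.057, edgeR adjusted p = 1.1e-16). The light chains MYL6 and MYL9 and the light chain kinase MYLK had log2 fold changes of -1.05, -1.44 and -1.07. Among cross-linkers the alpha-actinins ACTN1 and ACTN4 fell by 0.61 and 1.22 on the log2 scale, the filamins FLNA and FLNC by 1.20 and 0.58, and SYNPO2 by 2.93. In focal adhesions vinculin (VCL), which couples talin to actin, fell by 1.34 on the log2 scale, talin (TLN1) fell by 0.72 and zyxin (ZYX), which repairs strained filaments, fell by 0.75. The LIM scaffolds PDLIM5, PDLIM7 and FHL2 had log2 fold changes of -1.18, -0.95 and -0.61.

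The other 3 members went up. PDLIM4, a PDZ and LIM protein of stress fibres, held 67.4 to 77.1 CPM (median 71.9) in Grow and 108 to 171 CPM (median 157) in OIS libraries (log2 fold change 1.15, standard error 0.058, edgeR adjusted p = 1.07e-16). SVIL, supervillin, which anchors myosin II to the membrane, held 166 to 212 CPM (median 190) in Grow and 298 to 369.5 CPM (median 341) in OIS (log2 fold change 0.88, standard error 0.05, edgeR adjusted p = 1.91e-15). For both, the lowest OIS library exceeded the highest Grow library. SMTN, smoothelin, was at 209.9 to 238 CPM (median 220.5) in Grow and at 208 to 302 CPM (median 266) in OIS libraries (log2 fold change 0.28, standard error 0.053, edgeR adjusted p = 2.67e-05), and here the groups overlapped, with 6 OIS libraries above all Grow libraries and 1 below all of them. The lowest OIS values of PDLIM4 (108.2 CPM) and SMTN (208 CPM) were those of the shallow replicate 4, and without that library the fold changes were 1.19 and 0.31. Scaling by library size alone moved the median over all genes from 0.027 to 0.216, and 3 members higher and 33 lower were called there too, against 79.1% of all genes (52.3% higher and 26.8% lower).

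**Figure D2:**
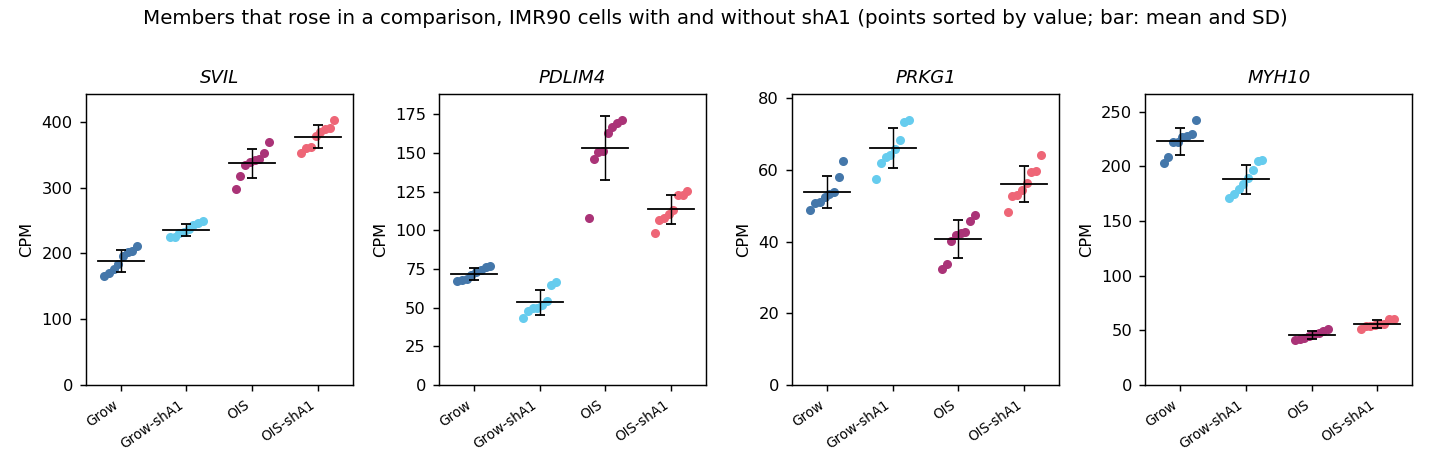
Levels in CPM of SVIL, PDLIM4, PRKG1 and MYH10 in the 8 libraries of each group of the first experiment, with a point per library, the mean as a line and the SD as a bar. SVIL and PDLIM4 lie higher in OIS than in Grow libraries, and PRKG1 and MYH10 lie higher in OIS-shA1 than in most or all OIS libraries.

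The knock-down of HMGA1, an architectural chromatin protein, was then compared with its control in each state. In growing cells 24 of 36 members were called, 22 lower and 2 higher, against 29.9% of all 13072 genes tested (14.8% higher and 15.1% lower). The changes were small, with a median log2 fold change of -0.19 over members and 0.007 over all genes. Only 4 called members passed a fold of 1.5, against 5.64% of all genes. With library sizes alone 2 members higher and 20 lower were called, against 30.8% of all genes. In 9 members all Grow-shA1 libraries lay below all Grow libraries and in 1 all lay above, beside 7.64% of all genes without overlap (3.44% above and 4.2% below). The fibroblast markers summed to 24670 to 30870 CPM in Grow-shA1 and 34650 to 43150 CPM in Grow, and the epithelial markers to 46.0 to 70.8 CPM and 71.5 to 94.4 CPM, both without overlap, and their part in the members' values was not tested. ACTA2 held 205 to 333 CPM (median 286) in Grow-shA1 (log2 fold change -0.58, standard error 0.076, edgeR adjusted p = 1.22e-06), with every library below the lowest Grow library at 370.5 CPM. ACTG2 held 239.8 to 390.2 CPM (median 285) (log2 fold change -0.65, standard error 0.079, edgeR adjusted p = 4.19e-07), 7 of 8 libraries below the Grow range. TAGLN held 558 to 729.5 CPM (median 637) (log2 fold change -0.59, standard error 0.062, edgeR adjusted p = 3.04e-08), all 8 below it. Among the lowest fold changes was that of ANKRD1, at 12.7 to 26.6 CPM (median 18.6) (log2 fold change -1.01, standard error 0.16, edgeR adjusted p = 2.03e-05), whose libraries overlapped those of Grow in 2. ACTC1 stood at 5.38 to 13.8 CPM (median 9.85) (log2 fold change -1.16, standard error 0.27, edgeR adjusted p = 0.00163), with 6 libraries within the range of Grow. SVIL, at 224 to 249 CPM (median 235) (log2 fold change 0.33, standard error 0.046, edgeR adjusted p = 4.32e-06), lay above Grow in all 8 libraries, and PRKG1, at 57.6 to 73.8 CPM (median 65.0) (log2 fold change 0.30, standard error 0.055, edgeR adjusted p = 0.00015), in 6 of 8.

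In senescent cells ANKRD1, CYR61, MYOCD and TAGLN fell under the hairpin, no member among the myosin chains and kinases was called lower, and the chains MYH10 and MYL6 and the kinase PRKG1 were called higher. Of 35 members tested (ACTC1 was too low here and in the CEBPB knock-down) 17 fell and 6 rose, against 35.9% of all 13327 genes (18.8% higher, 17.1% lower), and the median was -0.12 over members and 0 over all genes. Free of overlap were 9 members with OIS-shA1 below OIS and 2 with it above, beside 9.29% of all genes (5.37% above and 3.92% below). ANKRD1 fell the furthest, to 0.368 to 1.42 CPM (median 0.626) (log2 fold change -2.13, standard error 0.25, edgeR adjusted p = 1.22e-07). TAGLN held 45.2 to 80.5 CPM in OIS and 24.9 to 33.2 CPM (median 30.5) in OIS-shA1 (log2 fold change -1.01, standard error 0.085, edgeR adjusted p = 3.33e-10). MYOCD was at 2.23 to 5.13 CPM (median 3.38) (log2 fold change -0.98, standard error 0.15, edgeR adjusted p = 8.26e-06), and all 8 of its libraries lay below those of OIS. CYR61 was at 65.3 to 85.9 CPM (median 79.8) (log2 fold change -0.76, standard error 0.052, edgeR adjusted p = 6.63e-12). For these 4 genes no OIS-shA1 library overlapped the OIS libraries. LMOD1, already near 1 CPM in OIS, was at 0.474 to 1.07 CPM (median 0.791) (log2 fold change -0.99, standard error 0.26, edgeR adjusted p = 0.00364), with 2 of 8 libraries below the OIS range. CNN1 fell by 0.70 and SYNPO2 by 0.77 on the log2 scale, and these 7 members were the ones past a fold of 1.5, against 7.36% of all genes. Without replicate 4 of OIS, 25 members were called, against 38.4% of all genes.

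The rises under the hairpin in OIS cells were small, and 3 of the 6 were of myosin chains or kinases. PRKG1 was at 48.3 to 64.2 CPM (median 55.4) in OIS-shA1 and at 32.4 to 47.3 CPM (median 42.1) in OIS libraries (log2 fold change 0.47, standard error 0.07, edgeR adjusted p = 4.94e-06), with no overlap. MYH10 was at 50.8 to 60.4 CPM (median 55.2) (log2 fold change 0.30, standard error 0.052, edgeR adjusted p = 4.42e-05), above all OIS libraries in 7 of 8. TPM4 was at 802 to 901 CPM (median 859) against 714 to 776 CPM (log2 fold change 0.20, standard error 0.035, edgeR adjusted p = 4.72e-05), above them in all 8. CNN3 (log2 fold change 0.17), SVIL (0.16) and MYL6 (0.12) rose with overlapping groups. The rises of CNN3, SVIL and MYL6 depended on the scaling, since with library sizes alone they had adjusted p of 0.237, 0.167 and 0.556, and 3 members were called higher and 21 lower, against 41.9% of all genes (30.3% lower). HRAS fell by 0.21 in OIS-shA1 and rose by 0.20 in Grow-shA1 libraries on the log2 scale, and its part in the members' values was not tested.

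Whether the hairpin acted differently in the senescent and the growing state was tested as an interaction term over the 32 libraries of the 4 groups. It was called for 16 of 36 members, 8 with a higher and 8 with a lower fold change in OIS than in Grow, against 23.6% of all 13903 genes. The term was -1.10 (standard error 0.34, edgeR adjusted p = 0.0164) for ANKRD1, -0.83 (standard error 0.18, edgeR adjusted p = 0.000643) for MYOCD and -0.60 (standard error 0.066, edgeR adjusted p = 4.97e-09) for CYR61, so that the 3 YAP targets, AMOTL2 included at -0.29, and the coactivator each had a lower fold change under the hairpin in OIS than in Grow cells. MYOCD and AMOTL2 had log2 fold changes of -0.14 and 0.025 in growing cells, neither called. LMOD1 (-0.66), TAGLN (-0.41), CNN1 (-0.31) and SVIL (-0.17) had negative terms as well. The positive terms were led by MYH10 at 0.54 (standard error 0.067, edgeR adjusted p = 6.09e-08), which had log2 fold changes of -0.24 in Grow-shA1 and 0.30 in OIS-shA1, MYL9 at 0.40 (standard error 0.074, edgeR adjusted p = 6.04e-05) and TPM4 at 0.40 (standard error 0.048, edgeR adjusted p = 3.66e-08), and went on with ACTA2 (0.32), ACTN4 (0.24), CNN3 (0.23), MYL6 (0.20) and TPM2 (0.20). Of the 32 fits that left out 1 library, ACTN4 and SVIL were called in 11 each, ACTA2 in 15, LMOD1 in 17 and CNN1 in 22. With library sizes alone, which moved the median term of all genes to -0.127, 3 positive and 10 negative terms were called, against 31.2% of all genes, and those of ACTA2, ACTN4, CNN3, MYL6 and TPM2 were not among them. HRAS itself had a term of -0.41, and its part was not tested.

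In the second experiment replicates 4 and 5 stood apart from replicates 1 to 3 in all 5 groups of 5. After group means were removed, the first principal component held 36.7% of the variance, and its values ran from -20.4 to -11.2 in the 15 libraries numbered 1 to 3 and from 18 to 30.5 in the 10 numbered 4 and 5. What sets these libraries apart is not given in the labels. Same-numbered libraries deviated together in every compared pair of groups (correlations of 0.133 to 0.517), so fits with the replicate number as a block stand beside the unblocked ones where they move a count by over 1.5 times, and counts within either set of libraries are given for each comparison.

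The OIS-v-v libraries give senescent against growing cells under empty vectors. Of 36 members 32 fell and 2 rose, against 45.8% of all 13344 genes (22.7% higher and 23.2% lower), with a median log2 fold change of -0.78 over members and 0.007 over all genes. In 29 members all 5 OIS-v-v libraries lay below all 5 Grow-v-v libraries and in 2 above, beside 35% of all genes. Library sizes alone gave 2 higher and 32 lower, against 45.1% of all genes. Within replicates 1 to 3 there were 36 calls (3 higher), against 66.8% of all genes, and within replicates 4 and 5 30 (3 higher), against 40.5%. ACTA2 stood at 612, 568.5, 597, 617 and 553 CPM in replicates 1 to 5 of Grow-v-v and at 94.1, 92.1, 93.7, 60.6 and 51.2 CPM in those of OIS-v-v (log2 fold change -2.90, standard error 0.17, edgeR adjusted p = 7.08e-08). MYOCD stood at 57.8, 57.0, 51.1, 46.7 and 30.2 CPM in Grow-v-v and at 4.23, 5.73, 4.94, 4.65 and 4.81 CPM in OIS-v-v (log2 fold change -3.30, standard error 0.17, edgeR adjusted p = 3.46e-08). LMOD1 stood at 67.7, 71.1, 68.0, 42.6 and 26.5 CPM and at 3.50, 4.90, 3.84, 2.60 and 1.56 CPM in the same order (log2 fold change -4.06, standard error 0.32, edgeR adjusted p = 9.25e-07). All 5 senescent libraries lay below all growing ones for these 3 genes, the 2 replicates that stand apart included. ACTC1, at 3.56 to 4.47 CPM in Grow-v-v and 0.0540 to 0.621 CPM in OIS-v-v libraries, fell too (log2 fold change -3.70, standard error 0.35, edgeR adjusted p = 4.09e-06). The 6 fibroblast markers summed to 31530 to 45570 CPM in Grow-v-v and 8200 to 15280 CPM in OIS-v-v, and their part was not tested.

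PDLIM4 and SVIL were again the members that rose. PDLIM4 held 114, 114, 123, 142 and 177 CPM in Grow-v-v and 346, 340.3, 335, 229 and 235 CPM in OIS-v-v libraries (log2 fold change 1.16, standard error 0.16, edgeR adjusted p = 8.67e-05). SVIL held 293, 313, 275, 177 and 136 CPM and 464, 508, 453, 442 and 443 CPM (log2 fold change 0.96, standard error 0.19, edgeR adjusted p = 0.00129). In both genes each OIS-v-v library exceeded every Grow-v-v library. SMTN (0.21, edgeR adjusted p = 0.294) and PRKG1 (-0.13, edgeR adjusted p = 0.571) were the members not called. PRKG1 went opposite ways in the 2 sets of libraries, with 46.3, 37.3, 37.0, 26.7 and 20.7 CPM in Grow-v-v and 31.2, 28, 27.8, 33.2 and 32.02 CPM in OIS-v-v. Its log2 fold change was -0.47 (edgeR adjusted p = 2.51e-05) within replicates 1 to 3 and 0.46 (edgeR adjusted p = 0.0344) within replicates 4 and 5. The remaining falls ran from -0.31 for ZYX to -2.79 for TAGLN, and those of the YAP targets were -1.60 for CYR61, -1.46 for AMOTL2 and -0.97 for ANKRD1. For ANKRD1 the log2 fold change was -0.46 within replicates 1 to 3 and -2.20 within replicates 4 and 5. Within replicates 4 and 5 the falls of 5 members, ACTN1, CALD1, MYLK, TLN1 and PDLIM5, were not called. MYLK had -1.04 within replicates 1 to 3 and -0.05 within replicates 4 and 5.

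**Figure D3:**
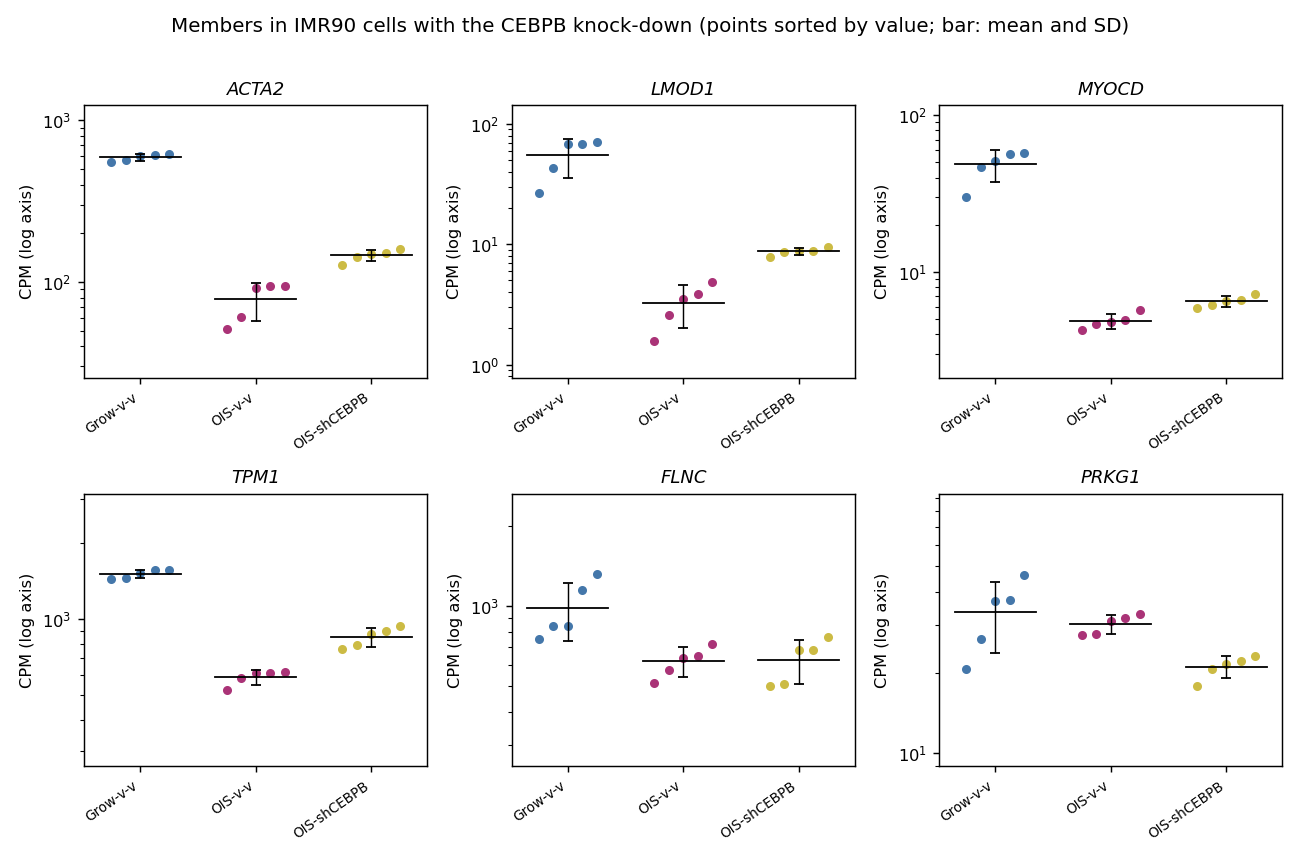
Levels in CPM (log axis) of ACTA2, LMOD1, MYOCD, TPM1, FLNC and PRKG1 in the 5 libraries each of Grow-v-v, OIS-v-v and OIS-shCEBPB, with a point per library, the mean as a line and the SD as a bar. ACTA2, LMOD1 and TPM1 lie higher and PRKG1 lower in OIS-shCEBPB than in all OIS-v-v libraries.

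The knock-down of CEBPB, a transcription factor of the senescence secretome, was compared with OIS-v-v, the libraries that also stand against Grow-v-v. With it 12 of 35 members were called, 11 higher and 1 lower, against 17.1% of all 13396 genes (9.09% higher and 8% lower), and the median log2 fold change was 0.20 over members and -0.002 over all genes. All 5 OIS-shCEBPB libraries lay above all OIS-v-v libraries in 10 members and below them in 1, beside 15% of all genes (8.02% and 6.97%). With the replicate block 21 members were higher and 1 lower, against 31.9% of all genes. The counts were 19 higher and 1 lower within replicates 1 to 3, against 32.6% of all genes, and 16 and 2 within replicates 4 and 5, against 24.6%. Library sizes alone gave 18 higher and 1 lower, against 18.8% of all genes.

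LMOD1 had the largest rise, to 8.67, 8.86, 9.41, 8.73 and 7.89 CPM in replicates 1 to 5 of OIS-shCEBPB from the OIS-v-v values given above (log2 fold change 1.40, standard error 0.22, edgeR adjusted p = 0.000962). ACTA2 rose to 159.6, 149, 151, 142 and 128 CPM (log2 fold change 0.89, standard error 0.16, edgeR adjusted p = 0.00214), 5 of 5 libraries above OIS-v-v and all below the lowest Grow-v-v library at 553 CPM. CYR61 held 213, 212, 224, 174 and 152 CPM in OIS-v-v and 318, 321, 335, 244 and 234 CPM in OIS-shCEBPB (log2 fold change 0.57, standard error 0.13, edgeR adjusted p = 0.0106). The ranges of LMOD1, ACTA2 and CYR61 did not overlap between the groups. TPM1 held 614, 584, 613, 619.9 and 523 CPM and 898, 876, 938, 788 and 762 CPM in the same groups (log2 fold change 0.52, standard error 0.077, edgeR adjusted p = 0.000558), again without overlap. CALD1 (0.47), VCL (0.46), MYOCD (0.41), SVIL (0.40), ACTN4 (0.30), AMOTL2 (0.27) and CNN3 (0.23) rose by less on the log2 scale, and AMOTL2 had -0.001 (edgeR adjusted p = 0.996) within replicates 4 and 5. Of the 10 fits that left out 1 library, VCL and AMOTL2 were called in 4 each and MYOCD in 8. PRKG1 was the member that fell, from the OIS-v-v values above to 20.6, 22.1, 17.9, 21.6 and 23.0 CPM (log2 fold change -0.54, standard error 0.081, edgeR adjusted p = 0.000676), all 5 below OIS-v-v. HRAS fell by 0.57 on the log2 scale in the same libraries, with 5 of 5 below every OIS-v-v library, and its part in the members' values was not tested.

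H1299 cells hold few or no counts of 7 members. MYOCD had 0 counts in all 13 libraries, which allows up to 3 counts in each, and with ACTG2, ACTC1, CNN1, LMOD1, PDLIM4 and ANKRD1 it did not pass the filter on low counts. Among these PDLIM4 held 0.262 to 0.487 CPM and ANKRD1 0 to 0.262 CPM in H1299 libraries. The remaining 30 members were tested under the HMGA1 hairpin, and 12 were called, 9 higher and 3 lower, against 15.6% of all 14840 genes (8.65% higher and 6.93% lower). The medians were 0.030 over members and 0.005 over all genes. All H1299-shA1 libraries lay above all H1299 libraries in 3 members and below in 2, beside 5.21% of all genes (2.65% and 2.56%). ACTA2, at 1.70 to 3.08 CPM (median 2.92) in H1299 and 3.50 to 4.76 CPM (median 4.53) in H1299-shA1 libraries (log2 fold change 0.68, standard error 0.12, edgeR adjusted p = 0.000686), was higher in 6 of 6. CYR61, at 361 to 477 CPM (median 385) and 521 to 655 CPM (median 594) (log2 fold change 0.54, standard error 0.07, edgeR adjusted p = 2.5e-05), was higher in 6 of 6 as well. The lowest H1299 value of ACTA2, in replicate 7, lay well under the others of its group, and without it the fold change was 0.60.

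PRKG1, at 2.82 to 4.34 CPM (median 3.08) and 3.73 to 5.15 CPM (median 4.49) (log2 fold change 0.43, standard error 0.11, edgeR adjusted p = 0.0149), rose with overlapping groups. So did TPM1, at 121 to 176 CPM (median 131) and 144 to 219.7 CPM (median 181) (log2 fold change 0.40, standard error 0.11, edgeR adjusted p = 0.0164). PDLIM5 was at 80.4 to 88.2 CPM (median 81.4) and 92.2 to 102 CPM (median 99.7) (log2 fold change 0.26, standard error 0.039, edgeR adjusted p = 0.000153), without overlap. FLNA (0.31, with 5 libraries above and 1 below all H1299 libraries), SMTN (0.30), PDLIM7 (0.22) and FHL2 (0.19) rose by similar amounts on the log2 scale. Of the 13 fits that left out 1 library, FLNA was called in 6, TPM1 in 10 and PDLIM7 in 11. MYL9, the regulatory light chain, fell, with 57.6 to 67.8 CPM (median 60.5) in H1299 and 48.5 to 54.5 CPM (median 49.0) in H1299-shA1 (log2 fold change -0.29, standard error 0.047, edgeR adjusted p = 0.000288). TPM2 fell too, with 515 to 586 CPM (median 552) and 427 to 494 CPM (median 466.5) (log2 fold change -0.22, standard error 0.041, edgeR adjusted p = 0.000869). For MYL9 and TPM2 all 6 H1299-shA1 libraries lay below all H1299 libraries. CNN2, at 193 to 226 CPM (median 209) and 176 to 217 CPM (median 184) (log2 fold change -0.15, standard error 0.049, edgeR adjusted p = 0.0406), was the third fall, and it was called in 5 of these 13 fits. The calls numbered 8 without replicate 2 or replicate 5 of H1299-shA1, against 11.8% and 11.3% of all genes, and 16 without its replicate 7, against 19.3%. The epithelial markers were lower in H1299-shA1 (630.4 to 716 CPM) than in H1299 libraries (814 to 1138 CPM), and their part was not tested.

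**Figure D4:**
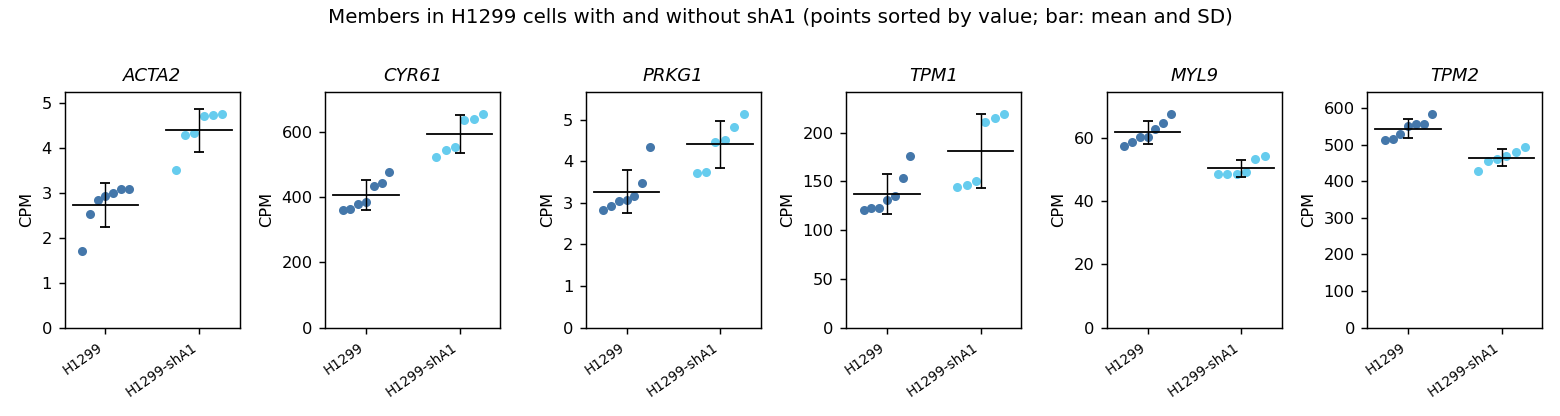
Levels in CPM of ACTA2, CYR61, PRKG1, TPM1, MYL9 and TPM2 in 7 H1299 and 6 H1299-shA1 libraries, with a point per library, the mean as a line and the SD as a bar. ACTA2 and CYR61 lie higher and MYL9 and TPM2 lower in all H1299-shA1 libraries, and PRKG1 and TPM1 overlap.

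Several members were called in opposite directions in different comparisons, CYR61 among them. On the log2 scale it fell by 2.58 in OIS, by 1.60 in OIS-v-v, by 0.16 in Grow-shA1 and by 0.76 in OIS-shA1, and rose by 0.57 in OIS-shCEBPB and 0.54 in H1299-shA1. PRKG1 rose in Grow-shA1, OIS-shA1 and H1299-shA1 and fell in OIS and OIS-shCEBPB, with the values above. SVIL was called higher in OIS, OIS-v-v, Grow-shA1, OIS-shA1 and OIS-shCEBPB, and in H1299-shA1 its log2 fold change was -0.10, not called. PDLIM4 rose in both senescent controls and fell in Grow-shA1 (43.3 to 66.5 CPM (median 50.8), log2 fold change -0.42) and in OIS-shA1 (98.4 to 125 CPM (median 112), log2 fold change -0.45). The fold changes of comparisons that share a control group are not independent.

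**Figure D5:**
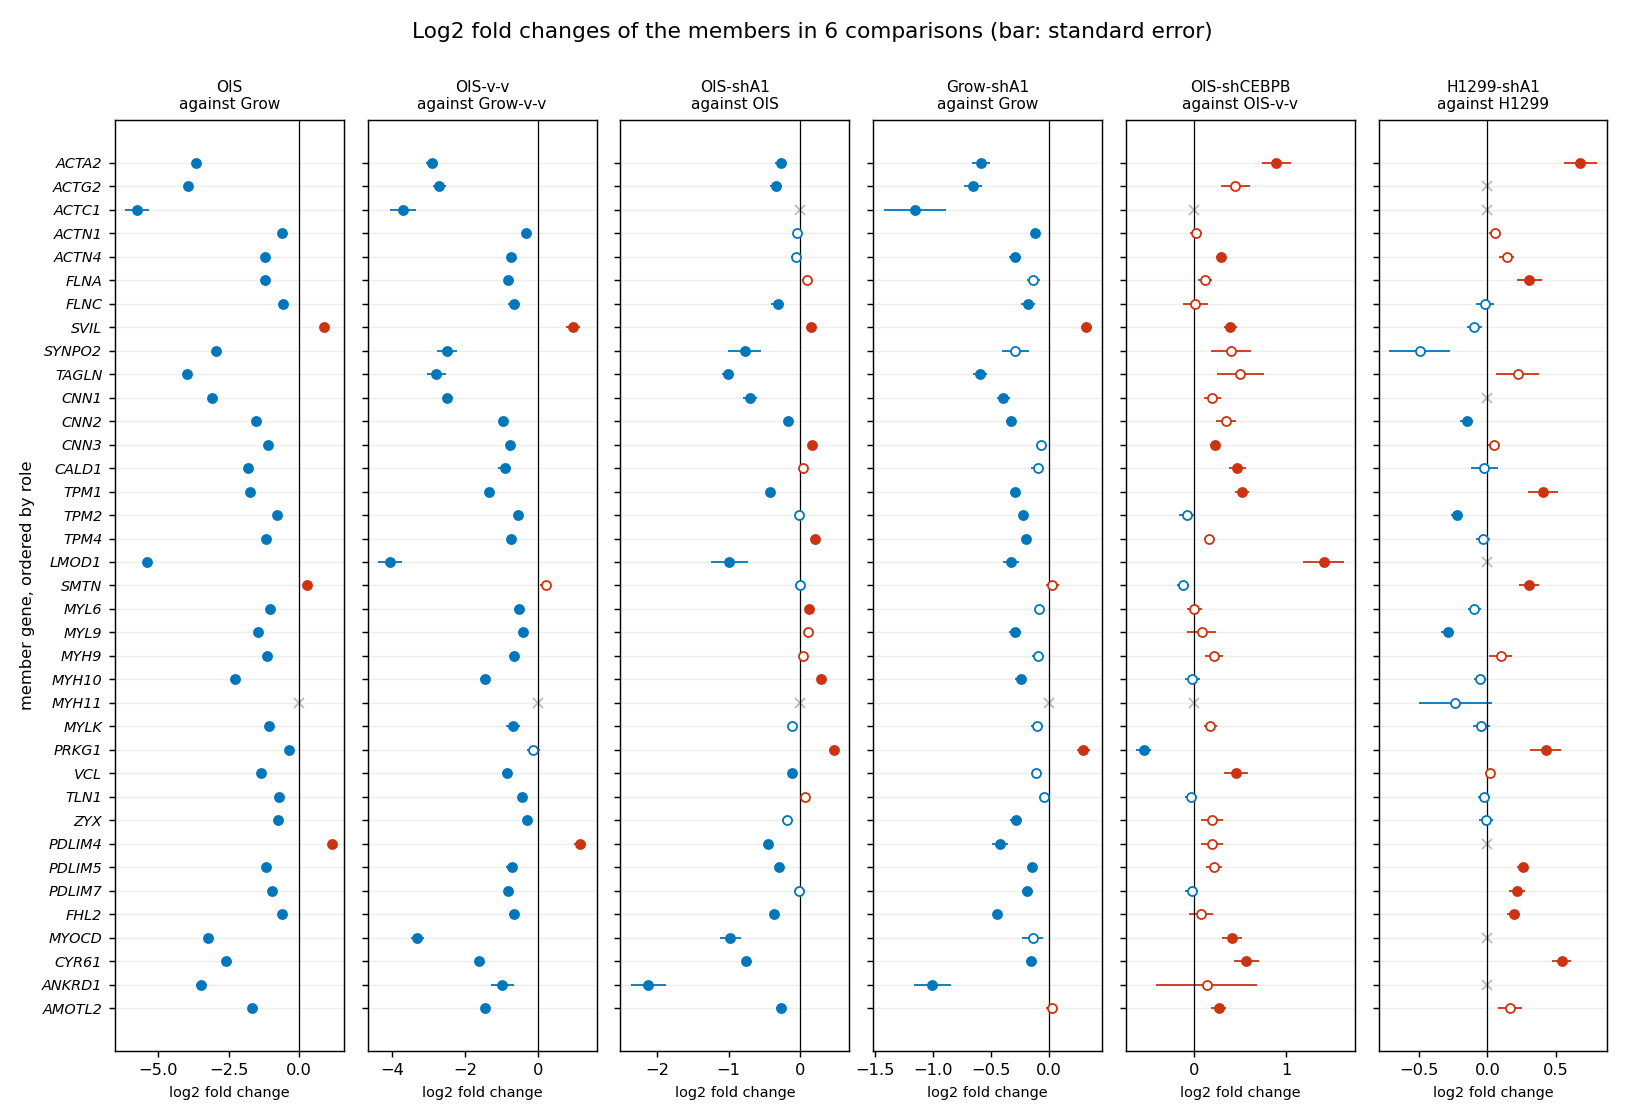
Log2 fold changes of the 37 members in 6 comparisons, each panel on its own scale, with the standard error as a bar, filled points for members called at an edgeR adjusted p under 0.05, open points for those not called and a grey cross for those not tested. Points of OIS and OIS-v-v lie left of 0 for all but a few members, and those of OIS-shCEBPB lie mostly right of 0.

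The rest of those members with calls in both directions have the following levels. FLNA ran from 3897 to 5023 CPM (median 4205) in Grow, from 1293 to 2176 CPM (median 1835) in OIS, from 582 to 761 CPM (median 641) in H1299 and from 554 to 948 CPM (median 836) in H1299-shA1 libraries. ACTN4 ran from 723 to 889.5 CPM (median 791) in Grow and from 246 to 380.1 CPM (median 335) in OIS, and from 511 to 566 CPM in OIS-v-v and 620.2 to 689.6 CPM in OIS-shCEBPB libraries. Both were lower in OIS than in Grow without overlap, and ACTN4 was called higher in OIS-shCEBPB. CNN3 held 126 to 148 CPM in OIS-v-v and 151 to 165 CPM in OIS-shCEBPB. CALD1 held 314 to 372 and 418 to 564 CPM in the same groups, and neither gene overlapped between them. VCL held 351 to 492 and 488 to 688 CPM, and AMOTL2 67.1 to 82.7 and 81.0 to 96.3 CPM, with overlaps in both. MYL6 stood at 1285 to 1472 CPM in Grow, 542 to 690 CPM in OIS and 664 to 724 CPM in OIS-shA1, PDLIM7 at 224 to 264, 83.4 to 144 and 108 to 145 CPM, and FHL2 at 174 to 195, 107 to 122 and 80.7 to 98.4 CPM. Of these 3 genes FHL2 alone was separate in all 3 groups. The calls of PDLIM7 and FHL2 in the other direction were those of H1299-shA1. There PDLIM7 held 73.3 to 96.9 CPM, against 71.4 to 83.1 CPM in H1299, and FHL2 201 to 227 CPM, against 178 to 207 CPM, with overlaps in both.

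Other genes of the pathways were followed as a list of 24, made of SRF with its MRTF partners, non-muscle actins and light chains, and the Hippo pathway that restrains YAP. In OIS 16 of the 24 fell and 4 rose. CTGF, the second secreted YAP target, was lowest at -2.49 (standard error 0.067, edgeR adjusted p = 4.57e-23), and AMOT (-1.54), an angiomotin, and TEAD3 (-1.02), a DNA-binding partner of YAP, fell as well, whereas STK4, a Hippo kinase, rose by 1.12. SRF itself fell by 0.24 and its partner MKL1 by 0.74 on the log2 scale, both named after their values were seen. In OIS-v-v 12 fell and 3 rose, with -1.71 for CTGF, -1.38 for AMOT, 0.89 for STK4 and 0.83 for SAV1, the scaffold of the Hippo kinases. With the HMGA1 hairpin 5 fell and 2 rose in growing and 5 fell and 5 rose in senescent cells. TEAD4, another DNA-binding partner of YAP, fell in both (-0.46 and -0.78). CTGF (-0.47) and AMOT (-0.42) fell and MKL2, a partner of SRF, rose (0.32) in OIS-shA1. In growing cells VGLL4, which competes with YAP for the TEAD factors, rose by 0.32, and the non-muscle actins ACTG1 (-0.23) and ACTB (-0.20) fell. The interaction term was called for 12 of the 24, led by CTGF at -0.56 (standard error 0.092, edgeR adjusted p = 1.14e-05) and by the light chain MYL12A at 0.44 (standard error 0.053, edgeR adjusted p = 2.82e-08). In OIS-shCEBPB YAP1 rose (0.32) and TEAD4 fell (-0.44), and the other 22 were not called. In H1299-shA1 3 rose and 3 fell, with 0.58 for AMOTL1, 0.45 for AMOT, -0.28 for TEAD3 and -0.26 for MKL2. The median log2 fold change of the list was -0.38 in OIS, -0.25 in OIS-v-v and between -0.021 and 0.066 in the other 4 comparisons. Of the list 83.3% was called in OIS and 62.5% in OIS-v-v, against 74.8% and 45.8% of all genes. In Grow-shA1 29.2% was called and in OIS-shA1 41.7%, against 29.9% and 35.9% of all genes. In OIS-shCEBPB 8.33% was called and in H1299-shA1 25%, against 17.1% and 15.6% of all genes. For the interaction 50% was called, against 23.6%.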

How the data were processed

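RNA-seq was made from IMR90 and H1299 cells in 3 experiments with 32, 25 and 13 libraries, and the depth of each is given in the report as a range. The deposited values were raw read counts per gene: the authors used STAR for alignment to hg19 and featureCounts for counting (version 1.5.2 in the header of the tables of the first experiment and of H1299, with no use of strand) over GENCODE gene models, so reads with more than 1 place or gene were not counted. For the second experiment the table lacks such a header, and kits and instruments per library are not given in the sources used here. All columns belonged to a sample (columns without one: 0). Groups were taken from the labels.

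Gene IDs were matched to symbols for 42662 of 44503 genes. Each pair of groups was fitted separately in edgeR 4.0.16 (R 4.3.3) with filterByExpr (minimum count 10), TMM factors and the quasi-likelihood test, as pairwise edgeR tests are named in the study's methods, with Benjamini-Hochberg adjustment over all genes tested. Differences of differences were interaction terms over 4 groups. The standard error is the log2 fold change divided by the square root of its F statistic. CPM used TMM factors over all libraries of an experiment, and FPKM were CPM per kilobase of hg19 exons, both computed here. Medians over genes are given beside those of all genes tested, and no test was made of the gene set itself. The steps were tested on simulated data.

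The 37 members, the pathway list and the tests were chosen with earlier results of these data known. Per-library values are given for up to 4 rises and 4 falls per comparison, by size among called members with a mean of at least 1 CPM, and for members called in opposite directions. Of the pathway list at most 4 genes per comparison are named. The comparisons that involve 1 other knocked-down gene, and 10 genes of the pathway list, are not reported here.

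Replicate numbers were checked by correlating the deviations of same-numbered libraries from their group means. In the second experiment every pair of the compared groups exceeded 0.1 (0.133 to 0.517), so the numbers pair libraries there. In the first (-0.13 to 0.166) and in H1299 (-0.145 to 0.288) same-numbered libraries did not deviate together throughout. No 2 libraries held identical values. Alternatives were DESeq2 1.42.0, library sizes alone, upper-quartile factors, no filter on low counts, a fold of at least 1.5, the replicate block, all groups in 1 fit and leaving out each library. Promoter windows came from RefSeq (GRCh38.p14), whereas the counts use hg19, so no position was carried from one to the other.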

Additional observations from a re-analysis of the deposited data

Results flagged for a closer look

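In 70 combinations of a gene and a group, 4 libraries lay further from the rest of their group than Dixon's limit allows, where chance gives about 3.5. ACTA2 in replicate 7 of H1299 held 1.7 CPM, below the other 6 libraries at 2.53 to 3.08 CPM. ACTG2 in replicate 6 of OIS held 22.4 CPM, below 28.1 to 32.7 CPM. ANKRD1 in replicate 4 of OIS held 6.67 CPM, above 1.76 to 4.04 CPM. PDLIM4 in the same replicate 4 held 108.2 CPM, below 145.8 to 171.1 CPM, and this is the library of 1903607 counts.

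The effect of the HMGA1 hairpin differed between OIS and Grow cells, by the interaction term in edgeR at an adjusted p under 0.05, for 16 members. The term, a difference of log2 fold changes, was positive for MYH10 (0.54), MYL9 (0.40), TPM4 (0.40), ACTA2 (0.32), ACTN4 (0.24), CNN3 (0.23), MYL6 (0.20) and TPM2 (0.20). It was negative for ANKRD1 (-1.10), MYOCD (-0.83), LMOD1 (-0.66), CYR61 (-0.60), TAGLN (-0.41), CNN1 (-0.31), AMOTL2 (-0.29) and SVIL (-0.17).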

How the results depend on the processing

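Of 5816 values of single members under the alternatives, 5447 kept their side of the threshold, 247 lost the call, 120 gained it and 2 reversed. A change of sign was counted as reversed only where the value was called in either fit. The 5447 therefore include uncalled values that changed sign, such as SMTN in OIS-v-v, 0.207 in the main fit and -0.141 within replicates 4 and 5. The reversed values, both from replicates 4 and 5 alone, were those of PRKG1 in OIS-v-v (0.46) and AMOTL2 in OIS-shCEBPB (-0.001). Counts of called members stayed within 1.5 times of those reported in OIS and OIS-v-v under all alternatives.

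With a fold of at least 1.5 asked for as well, 4 members were called in Grow-shA1, 7 in OIS-shA1, 2 in OIS-shCEBPB, 1 in H1299-shA1 and 4 by the interaction of the HMGA1 hairpin with OIS, since this limit removes small changes by construction. The shares of all genes called under this limit were 5.64%, 7.36%, 7.21%, 2.41% and 5.63% in the same order. In OIS-shCEBPB 19 members were called with library sizes alone (18.8% of all genes), 22 with the replicate block (31.9%), 20 within replicates 1 to 3 (32.6%) and 22 with the split of the replicates as a term (34.1%). For these counts the cause was not tested, and the sets of replicates and the split term were chosen after seeing the data.

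Leaving out 1 library at a time, the count stayed at 36 in OIS and ran from 22 to 26 in Grow-shA1, 22 to 25 in OIS-shA1, 33 to 34 in OIS-v-v, 10 to 14 in OIS-shCEBPB, 8 to 16 in H1299-shA1 and 11 to 17 for the interaction of the hairpin with OIS. The shares of all genes called in these fits ran from 73.3% to 75.5%, 27.5% to 30.9%, 33% to 38.4%, 40.3% to 48.8%, 13.4% to 18.5%, 11.3% to 21% and 22% to 24.6% in the same order. Calls lost in at least 1 such fit were those of ACTN1 and FLNC in Grow-shA1, CNN2 and MYL6 in OIS-shA1, MYL9 in OIS-v-v, AMOTL2, VCL and MYOCD in OIS-shCEBPB, CNN2, FLNA, PDLIM7 and TPM1 in H1299-shA1, and ACTA2, ACTN4, CNN1, LMOD1 and SVIL for the interaction with OIS. In the first experiment and H1299, where same-numbered libraries did not deviate together throughout, the replicate block gave 36 calls in OIS, 26 in Grow-shA1, 22 in OIS-shA1 and 18 for the interaction. With replicates 2 to 7 it gave 14 of 29 members in H1299-shA1. In the second the block gave 34 in OIS-v-v. The shares of all genes called with the block were 73.9%, 30.3%, 31%, 23.6%, 16.4% and 49.7% in the same order. With library sizes alone the share of higher among all called genes moved from 51.9% to 66.2% in OIS, 49.4% to 60.3% in Grow-shA1, 52.3% to 27.8% in OIS-shA1, 53.2% to 70.9% in OIS-shCEBPB and 51.7% to 20.4% for the interaction with OIS. Members with few counts, such as ACTC1, LMOD1 and ANKRD1 in OIS, carry wide errors. In H1299-shA1 the log2 fold change of SYNPO2 ran from -0.70 to -0.31 over the fits that left out 1 library, and that of ACTA2 from 0.60 to 0.74.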
